A study of Sus scrofa with 14 samples.

Results

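The WNT ligands, their receptors and their secreted antagonists were followed in the adipose tissue of pigs. The members are the genes whose Sus scrofa symbol is WNT, FZD, SFRP, DKK or RSPO followed by a number, together with LRP5, LRP6, LGR4, LGR5, LGR6 and WIF1, which gave 46 of the 21280 genes in the count and TPM tables. They comprise 18 WNT ligands, 10 FZD receptors with the 2 coreceptors LRP5 and LRP6, 4 R-spondins with their 3 LGR receptors, and 9 antagonists. The tissue came from adult female wild boars and Bama pigs of 2 years of age, which were kept in single pens on the same feed. The wild boars were captured young and the Bama pigs came from a line that was not inbred over a long period. No transgene or treatment is named for either group. A visceral depot, the greater omentum (GOM), and a subcutaneous depot, the upper layer of backfat (ULB), were taken. RNA-seq was analysed in 7 libraries, 4 from the GOM (2 per breed) and 3 from the ULB (2 of wild boars, 1 of a Bama pig), and Hi-C in 7 libraries of the same groups. Only 2 pigs of each breed were used and both depots came from the same pigs, so the libraries of a breed stand for few animals, and Bama pig ULB has no replicate here. Which GOM and ULB library share a pig is not given by the labels, and the tests treated the libraries as separate.

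WNT proteins are secreted, lipid-modified ligands that bind FZD receptors, and with the coreceptors LRP5 or LRP6 they keep beta-catenin from being degraded, while other WNT proteins act through FZD and ROR or RYK receptors without beta-catenin. R-spondins bind LGR receptors and keep FZD and LRP proteins on the cell surface, and the SFRP, DKK and WIF proteins are secreted antagonists that bind WNT proteins or, for DKK proteins, the LRP coreceptors. In adipose tissue the beta-catenin branch is known to hold back the differentiation of preadipocytes.

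Levels are given as TPM, the share of a gene among the transcripts of a library after scaling by transcript length, so that genes can be compared. The TPM of the 21280 genes summed to 774260 to 956616 per library, so TPM was not scaled to an equal total between libraries. Of the 46 members, 32 reached a mean TPM of at least 1 in a breed and depot, and 19 reached 10. RSPO4 was listed at 0 in every library. Antagonists and receptors were the most abundant members. SFRP5 led all members in 6 of the libraries, with 127 to 201 TPM in the 4 GOM libraries and 183 to 295 TPM in the 3 ULB libraries. The exception was wild boar ULB replicate 1, where SFRP1 stood at 184 TPM beside 183 TPM for SFRP5. LRP6 and FZD4 followed among the receptors, with 62.7 to 138 TPM and 64.6 to 109 TPM across libraries. Among the ligands WNT16 stood highest by mean TPM in the GOM, at 36.02 ± 14.7 TPM (SD, n = 4), followed by WNT5B at 25.1 ± 8.16 and WNT5A at 21.5 ± 6.996. These 3 neighbours in the order overlapped in their spread, and WNT9A came next at 12.1 ± 2.59. In the ULB the highest ligand was WNT11 at 4.93 ± 2.93 TPM (SD, n = 3), next to WNT5B at 3.92 ± 4.38 and WNT9A at 3.62 ± 1.93, and these also overlapped.

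**Figure D1:**
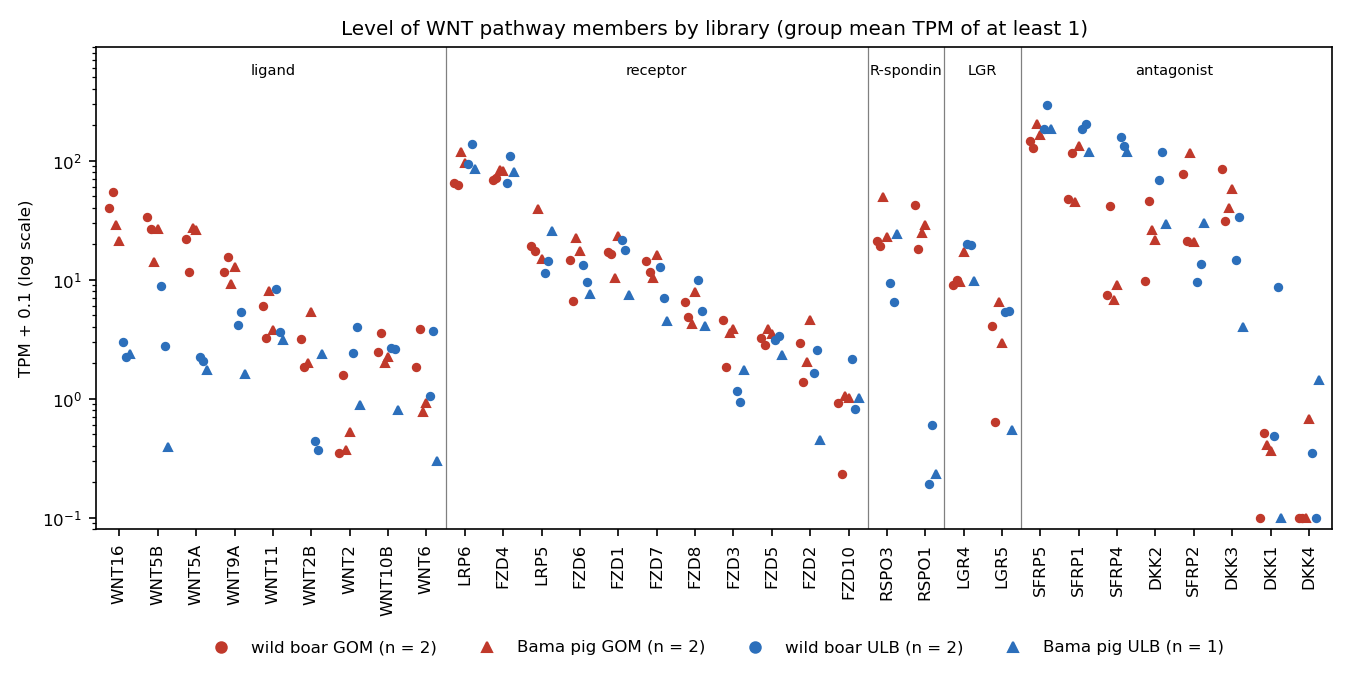
TPM plus 0.1 on a log axis for the 32 members with a group mean TPM of at least 1, in order of role and level, with 1 point per library, red for GOM, blue for ULB, circles for wild boar and triangles for Bama pig. The depots are apart for WNT16, WNT5A, WNT5B, WNT9A, FZD3, RSPO1 and SFRP4, and FZD4 and LRP6 overlap.

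Libraries held 10833153 to 18627076 estimated counts. Adipocyte transcripts were high in every library, and the labels of the depots fitted most of their listed genes, with WT1 at 19.9 to 83.7 TPM in the GOM and 0 to 0.25 TPM in the ULB, and EN1 at 0 to 0.14 TPM in the GOM and 3.16 to 7.12 TPM in the ULB. Of the 4 listed ULB genes found by symbol, 1 stood at 0 in each ULB library. These genes summed to 6.25 TPM in wild boar GOM replicate 2, to 1.03 to 1.79 TPM in the other GOM libraries and to 28.0 to 41.3 TPM in the ULB. The listed GOM genes summed to 50.6 TPM in wild boar GOM replicate 2 and to 95.4 to 144 TPM in the other GOM libraries. The part of this difference between libraries in the results was not tested. Wild boar ULB replicate 1 also held skeletal muscle transcripts (ACTA1 at 114 TPM, against at most 3.55 TPM elsewhere), and the 3 Bama pig libraries held liver transcripts (ALB at 77.7 to 873 TPM, against at most 6.60 TPM in wild boar). Not all listed liver genes did so, since APOA1 stood at 146 to 227 TPM in Bama pig and 163 to 206 TPM in wild boar. The part of the muscle and liver transcripts in the results was not tested. These are bulk tissue samples, so fewer cells of a type and less RNA per cell cannot be told apart.

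Every member was placed on an autosome of Sscrofa11.1, the build of the Hi-C values, through its symbol in the RefSeq annotation. Several ligands neighbour each other in 4 pairs. WNT1 and WNT10B on chromosome 5 have start sites 3.32 kb apart and overlap in the annotation, so reads of this pair may not be told apart. WNT6 and WNT10A start 23.7 kb apart on chromosome 15, WNT9A and WNT3A 25.6 kb apart on chromosome 2, and WNT3 and WNT9B 27.8 kb apart on chromosome 12. Promoters were read from 250 bases before to 50 bases after the annotated gene start. Their median GC content was 68.0%, against 58.7% over 18690 autosomal promoters, and their median number of CpG dinucleotides was 24 against 16. The core that TCF and LEF factors bind was searched on both strands as 4 words, namely CTTTGAA, its variant CTTTGAT, the word CTTTGTA and its variant CTTTGTT. No match in a member promoter overlapped another. They occurred in 6 of 46 member promoters (13.0%), those of DKK1, DKK4, FZD1, FZD7, WNT11 and WNT8B, and in 12.5% of all autosomal promoters. None of the 8 members called between the depots had such letters in this window. The 250 bases before the gene start are shown, 5′ to 3′ on the strand of the gene, for the 3 members whose depot difference held in every fit without a library (RSPO1, WNT5A and WNT16) and for the member that fell in the GOM (SFRP4). DKK1 is shown as the member with 2 matches, which stand in capitals. The windows are chr6:93690329-93690578 (minus strand) for RSPO1, chr13:37367216-37367465 (minus strand) for WNT5A, chr18:25633731-25633980 (minus strand) for WNT16, chr9:108414336-108414585 (minus strand) for SFRP4 and chr14:97490119-97490368 (minus strand) for DKK1, from the RefSeq sequence of Sscrofa11.1.
RSPO1: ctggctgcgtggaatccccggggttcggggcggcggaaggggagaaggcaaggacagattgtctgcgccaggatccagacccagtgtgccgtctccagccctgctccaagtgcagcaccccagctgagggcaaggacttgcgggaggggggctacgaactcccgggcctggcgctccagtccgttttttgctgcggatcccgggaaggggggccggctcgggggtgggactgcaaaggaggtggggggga
WNT5A: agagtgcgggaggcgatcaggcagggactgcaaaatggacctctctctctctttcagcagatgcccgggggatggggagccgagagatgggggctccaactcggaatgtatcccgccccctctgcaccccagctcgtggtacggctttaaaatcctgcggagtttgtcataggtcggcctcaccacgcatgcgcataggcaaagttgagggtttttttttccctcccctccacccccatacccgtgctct
WNT16: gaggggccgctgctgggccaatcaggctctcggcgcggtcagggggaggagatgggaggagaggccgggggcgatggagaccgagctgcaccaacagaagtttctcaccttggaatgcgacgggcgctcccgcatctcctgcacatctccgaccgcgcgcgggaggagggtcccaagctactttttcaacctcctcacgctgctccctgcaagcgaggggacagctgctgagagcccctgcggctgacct
SFRP4: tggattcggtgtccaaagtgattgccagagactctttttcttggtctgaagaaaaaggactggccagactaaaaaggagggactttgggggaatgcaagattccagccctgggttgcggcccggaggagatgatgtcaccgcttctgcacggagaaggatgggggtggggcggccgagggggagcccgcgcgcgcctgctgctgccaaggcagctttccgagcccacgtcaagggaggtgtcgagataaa
DKK1: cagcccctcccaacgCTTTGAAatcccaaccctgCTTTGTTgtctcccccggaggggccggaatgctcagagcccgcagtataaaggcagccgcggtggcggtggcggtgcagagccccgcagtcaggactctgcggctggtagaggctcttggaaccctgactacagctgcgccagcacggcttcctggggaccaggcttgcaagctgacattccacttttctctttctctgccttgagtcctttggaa

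To learn how the members differ between a visceral and a subcutaneous depot, the 4 GOM libraries were compared with the 3 ULB libraries, with breed as a covariate. A gene was called when edgeR's quasi-likelihood test gave a Benjamini-Hochberg adjusted p below 0.05 over all 17934 genes tested and the absolute log2 fold change was above 1. Of the 46 members, 41 passed the filter of a TPM above 0.1 in at least 2 libraries. WNT1, WNT3A, WNT7A, WNT8B and RSPO4 did not, and these reached at most 0.37 TPM. In the GOM 7 members were higher (WNT5A, WNT5B, WNT7B, WNT9A, WNT16, RSPO1 and DKK3) and 1 was lower (SFRP4), which is 19.5% of those tested, where 3.5% of all genes were called, 2.28% as higher and 1.22% as lower. WNT7B, WNT10A and RSPO2 passed the filter only through GOM libraries and LGR6 only through ULB libraries. Without these 4, 7 of 37 members were called (18.9%), where 3.38% of the genes above 0.1 TPM in a library of each depot were. The fold change was positive for 25 and negative for 16 of the 41, with a median log2 fold change of 0.26, or 0.26 with WNT7B at its lower bound, against 0.04 over all genes. At an unadjusted p below 0.05 stood 17 members, where 18.9% of all genes did. In 8 of the tested members every GOM library was above every ULB library in TPM (8.3% of all genes), and in 2 every GOM library was below (2.64%). The former include WNT7B and WNT10A.

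The summed level of the WNT ligands was higher in the GOM, where 4 genes made up most of the sum. Of the 14 tested WNT genes, 10 had a positive and 4 a negative fold change. The summed TPM of the 18 WNT genes was 122, 122, 92.6 and 101 in the 4 GOM libraries (wild boar, then Bama pig) and 33.4, 26.6 and 14.9 in the 3 ULB libraries, or 109 ± 15.0 (SD, n = 4) against 25.0 ± 9.37 (SD, n = 3). Every GOM library was above every ULB library in this sum. WNT5A, WNT5B, WNT9A and WNT16 together gave 84.6% to 88.2% of the WNT transcripts in the GOM libraries and 38.2% to 53.7% in the ULB libraries. These 4 genes were among those called as higher in the same data, so the sum is no separate evidence. It does not show a rise of the other WNT genes.

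**Figure D2:**
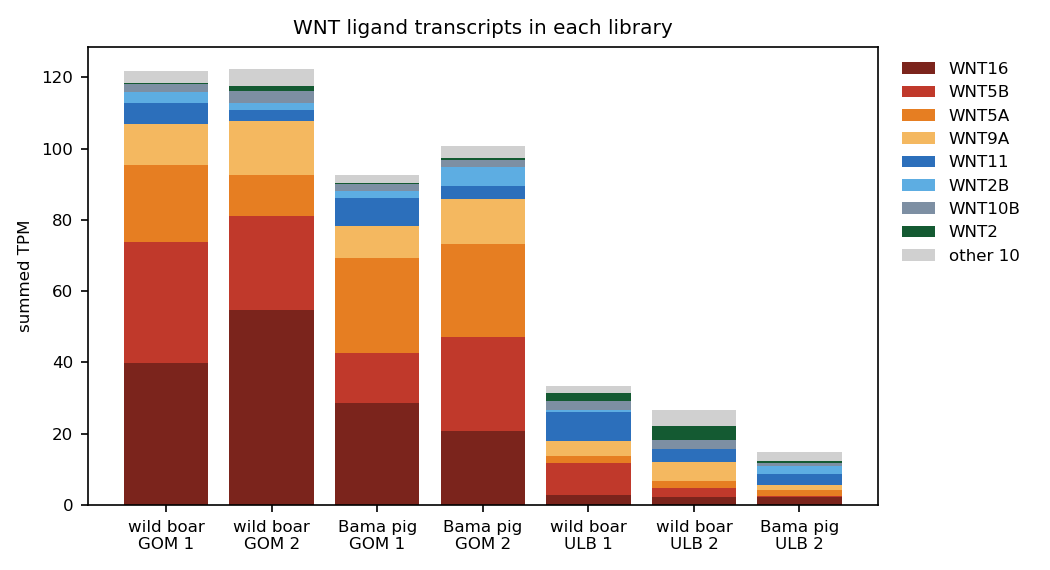
Summed TPM of the 18 WNT ligands in each of 7 libraries, as stacked bars that start at 0 and are divided by gene. The GOM bars reach 92.6 to 122 TPM and consist mainly of WNT16, WNT5B, WNT5A and WNT9A, and the ULB bars reach 14.9 to 33.4 TPM.

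WNT5A, on chromosome 13 (chr13:37344684-37367215, minus strand), is the best known ligand that acts without beta-catenin. It stood at 21.7 and 11.6 TPM in the wild boar GOM, at 26.8 and 26.0 TPM in the Bama pig GOM, and at 2.14 and 1.97 TPM in wild boar ULB and 1.64 TPM in Bama pig ULB. The lowest GOM library lay well above the highest ULB library, and the ULB libraries were close together. Its log2 fold change was 3.34 (SE 0.29, adjusted p = 0.000276, edgeR), and from 3.17 to 3.52 in the fits without 1 library. WNT16, on chromosome 18 (chr18:25621802-25633730, minus strand), a ligand best known from bone, stood at 39.97 and 54.7 TPM in the wild boar GOM, at 28.5 and 20.9 TPM in the Bama pig GOM, against 2.91, 2.14 and 2.25 TPM in the 3 ULB libraries. Both wild boar GOM libraries were above both Bama pig GOM libraries, and no depot overlapped. The log2 fold change was 3.87 (SE 0.41, adjusted p = 0.000826, edgeR), between 3.55 and 4.43 without 1 library.

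WNT5B, the close relative of WNT5A on chromosome 5 (chr5:68627158-68731938, plus strand), stood at 33.8 and 26.4 TPM in the wild boar GOM, 14.1 and 26.3 TPM in Bama pig GOM, 8.79 and 2.68 TPM in wild boar ULB and 0.29 TPM in Bama pig ULB. The depots did not overlap, but the ULB libraries were spread widely, with 7 estimated counts in Bama pig ULB. Its log2 fold change was 3.39 (SE 0.67, adjusted p = 0.0213, edgeR), and the adjusted p was 0.0686 without wild boar ULB replicate 2 and 0.0926 without Bama pig ULB replicate 2 (edgeR). The log2 fold change was 4.46 without wild boar ULB replicate 1 and 2.53 without Bama pig ULB replicate 2. WNT9A, a ligand of the beta-catenin branch on chromosome 2 (chr2:51102757-51128346, minus strand), stood at 11.4, 15.2, 9.03 and 12.8 TPM in the GOM and 4.08, 5.28 and 1.5 TPM in the ULB. The depots did not overlap and the log2 fold change was 2.01 (SE 0.32, adjusted p = 0.007, edgeR), with an adjusted p of 0.0729 without Bama pig ULB replicate 2. Its neighbour WNT3A was at or under 0.08 TPM everywhere.

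WNT7B, on chromosome 5 (chr5:3521412-3572322, plus strand), was a rare transcript with 32, 16, 15 and 12 estimated counts in the GOM libraries and 0 in each of the 3 ULB libraries. Against a floor of 3 counts per library it was at least 5.57-fold higher in the GOM on a scale of library size, and this floor covers counting error only. Since it passed the filter only through the GOM libraries, its call is given as a description and its p is not read. WNT10A was also rare, with 12, 4, 11 and 15 counts in the GOM and 0, 0 and 1 in the ULB, and it was not called.

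**Figure D3:**
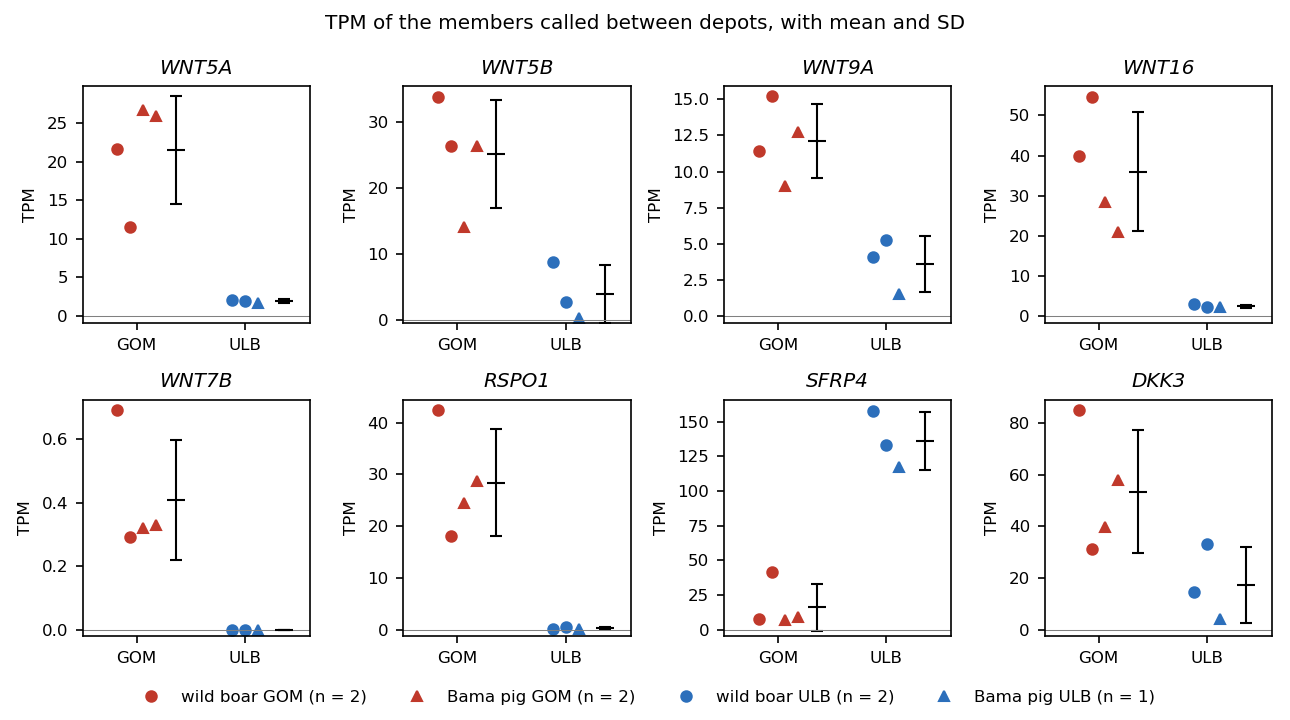
TPM of the 8 members called between the depots, 1 panel per gene, with 1 point per library (red GOM, blue ULB, circles wild boar, triangles Bama pig) and the mean and SD of each depot as a bar beside the points. The depots do not overlap for any gene but DKK3, where wild boar ULB replicate 2 (33.4 TPM) lies above wild boar GOM replicate 2 (31.2 TPM).

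The other tested ligands did not pass the test. WNT2B had 3.09 and 1.73 TPM in the wild boar GOM, 1.90 and 5.20 TPM in Bama pig GOM, 0.34 and 0.27 TPM in wild boar ULB and 2.29 TPM in Bama pig ULB (log2 fold change 1.81, SE 0.67, adjusted p = 0.18, edgeR). In wild boar the depots were apart, whereas the Bama pig ULB library lay between its GOM libraries, and in the wild boar libraries alone WNT2B was called (log2 fold change 3.15, adjusted p = 0.0228, edgeR). That fit called 5 members and 425 genes. WNT2 went the other way, with 0.25 to 1.48 TPM in the GOM and 0.78 to 3.87 TPM in the ULB, and overlapped (log2 fold change -1.54, SE 0.59, adjusted p = 0.195, edgeR). WNT9B was lower in every GOM library (0.10 to 0.36 TPM) than in every ULB library (0.50 to 0.63 TPM), at low levels and without a call (adjusted p = 0.207, edgeR). WNT11 stood at 3.10 to 7.87 TPM in the GOM and 2.98 to 8.30 TPM in the ULB, WNT10B at 1.90 to 3.47 and 0.70 to 2.56 TPM, and WNT6 at 0.67 to 3.77 and 0.20 to 3.6 TPM, all with overlap. WNT3 and WNT8A stayed under 1 TPM in every library.

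Among the R-spondins, RSPO1 on chromosome 6 (chr6:93664839-93690328, minus strand) had the largest fitted change of the members with counts in both depots. It stood at 42.4 and 18.1 TPM in the wild boar GOM, at 24.4 and 28.8 TPM in the Bama pig GOM, against 0.09, 0.50 and 0.13 TPM in the ULB, where it had 1, 6 and 1 estimated counts. The depots were far apart. The log2 fold change was 7.02 (SE 0.59, adjusted p = 0.000276, edgeR), between 6.55 and 8.06 without 1 library. RSPO3, the R-spondin that was present in both depots, stood at 20.9, 19.0, 48.9 and 22.6 TPM in the GOM and 9.31, 6.43 and 24.1 TPM in the ULB. On the TPM scale it was higher in Bama pig than in wild boar in both depots, and the Bama pig ULB library lay above 3 of the GOM libraries. It was not called between the depots (log2 fold change 0.93, SE 0.40, adjusted p = 0.236, edgeR). RSPO3 therefore gave 92.1% to 99.1% of the R-spondin transcripts in the ULB libraries and 32.2% to 66.6% in the GOM libraries, where RSPO1 gave most of the rest. RSPO2 reached 1.48 TPM in the wild boar GOM replicate 1 and at most 0.13 TPM elsewhere. Of the R-spondin receptors, LGR4 stood at 8.93 to 17.1 TPM in the GOM and 9.68 to 20.0 TPM in the ULB and LGR5 at 0.54 to 6.33 and 0.44 to 5.34 TPM, with overlap and no call. LGR6 was at or under 0.22 TPM.

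None of the 12 FZD and LRP receptors was called between the depots by edgeR, and 2 had an unadjusted p below 0.05, FZD3 and FZD7, where 18.9% of all genes did. By DESeq2 the count was 1, FZD3, where DESeq2 called 1289 of all genes, against 628 by edgeR. FZD4, the most abundant FZD receptor in every library, stood at 68.1, 70.6, 83.5 and 82.2 TPM in the GOM and 64.6, 109 and 79.8 TPM in the ULB (log2 fold change -0.20, SE 0.26). LRP6 stood at 64.9, 62.7, 117 and 95.5 TPM in the GOM and 92.8, 138 and 85.0 TPM in the ULB (log2 fold change -0.42, SE 0.26). In both genes the depots overlapped. FZD3 was the only receptor without overlap, at 4.5, 1.73, 3.45 and 3.72 TPM in the GOM and 1.05, 0.83 and 1.65 TPM in the ULB (log2 fold change 1.39, SE 0.44, adjusted p = 0.122, edgeR). The summed TPM of the 10 FZD genes was 137 ± 18.2 in the GOM (SD, n = 4) and 131 ± 24.0 in the ULB (SD, n = 3), and that of LRP5 and LRP6 was 108 ± 34.9 and 122 ± 25.8. These sums differed by less than the spread between libraries. FZD1, FZD6, FZD7 and FZD8 stood at 3.97 to 23.3 TPM across the libraries and FZD2, FZD5 and FZD10 at 0.13 to 4.45 TPM, and FZD9 reached at most 0.49 TPM.

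Among the antagonists, SFRP4 on chromosome 9 (chr9:108404314-108414335, minus strand), a WNT-binding protein secreted by adipose tissue, was the member that fell in the GOM. It stood at 7.27 and 41.3 TPM in the wild boar GOM, 6.61 and 8.93 TPM in Bama pig GOM, 158 and 133 TPM in wild boar ULB and 117 TPM in Bama pig ULB. All GOM libraries were below all ULB libraries, and wild boar GOM replicate 2 was set apart from the other 3 GOM libraries. That library also had the highest sum of the listed ULB genes in the GOM. The log2 fold change of SFRP4 was -3.15 (SE 0.61, adjusted p = 0.0188, edgeR). The adjusted p was 0.0535 without Bama pig GOM replicate 1, 0.0529 without Bama pig GOM replicate 2 and 0.173 without Bama pig ULB replicate 2 (edgeR). The log2 fold change was -4.30 without wild boar GOM replicate 2 and -2.31 without Bama pig ULB replicate 2. The summed TPM of the 4 SFRP genes was 276, 305, 368 and 325 in the GOM libraries and 534, 646 and 447 in the ULB libraries, or 318.5 ± 38.4 (SD, n = 4) against 542 ± 99.6 (SD, n = 3). Every GOM library was below every ULB library in this sum, which had no test. The sum includes SFRP4, which was called as lower in the same data, so it is no separate evidence. It does not show a fall of the other SFRP genes. SFRP4 gave 1.80% to 13.6% of the SFRP transcripts in the GOM libraries and 20.6% to 29.6% in the ULB libraries. SFRP1 stood at 47.4, 116, 45.1 and 133 TPM in the GOM and 184, 204 and 118 TPM in the ULB, with overlap and no call (log2 fold change -0.91, adjusted p = 0.295, edgeR). SFRP2 varied widely among GOM libraries of the same breed, at 76.6 and 20.8 TPM in wild boar and 115 and 20.6 TPM in Bama pig, against 9.36, 13.3 and 29.7 TPM in the ULB (log2 fold change 1.61, SE 0.60, adjusted p = 0.179, edgeR).

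DKK3 on chromosome 2 (chr2:47385244-47444664, plus strand), a DKK family member that is not known to bind the LRP coreceptors, stood at 85.1, 31.2, 39.7 and 58.1 TPM in the GOM and 14.6, 33.4 and 3.91 TPM in the ULB, and the depots overlapped. The log2 fold change was 2.10 (SE 0.48, adjusted p = 0.0417, edgeR). The adjusted p was 0.156 without wild boar GOM replicate 1, 0.0594 without Bama pig GOM replicate 1, 0.135 without wild boar ULB replicate 1 and 0.223 without Bama pig ULB replicate 2 (edgeR), where the log2 fold change was 1.46. DKK2, an antagonist that binds LRP5 and LRP6, was the leading DKK gene in all 3 ULB libraries. It stood at 9.66, 45.3, 26.0 and 21.3 TPM in the GOM and 68.9, 117 and 29.3 TPM in the ULB, with overlap and no call (log2 fold change -1.17, SE 0.48, adjusted p = 0.218, edgeR). DKK1 had 110 counts in wild boar ULB replicate 2 and at most 7 elsewhere, and DKK4 had at most 4. WIF1 was present at 0.17 to 0.37 TPM.

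Markers of mesothelium, the layer that covers the omentum, moved with the same contrast. Of 10 listed genes 6 were found by symbol and 4 were higher in the GOM (WT1, UPK1B, BNC1 and KRT8). Their summed level was 172 to 570 TPM in the GOM libraries and 3.48 to 20.8 TPM in the ULB libraries, where BNC1 was at 0, 0 and 0.17 TPM. CALB2 was at 0 in 3 of the 4 GOM libraries. Wild boar GOM replicate 2 had the lowest mesothelial sum of the GOM libraries, and in this library RSPO1 (18.1 TPM) and WNT5A (11.6 TPM) were also lowest in the GOM, while WNT16 (54.7 TPM) was highest. Listed macrophage transcripts summed to 536 to 1263 TPM in the GOM and 389 to 585 TPM in the ULB, with none of 6 called. The summed level of 7 progenitor and fibroblast genes was 3099 to 4194 TPM in the GOM and 4728 to 8002 TPM in the ULB. Only PI16 was called by edgeR, as higher, at 34.1 to 178 TPM against 18.3 to 27.6 TPM, while COL1A1 (log2 fold change -2.07, adjusted p = 0.0959, edgeR) and COL3A1 (-1.24, adjusted p = 0.164, edgeR) were below the ULB in every GOM library. Of 7 adipocyte genes none was called by edgeR, with a median log2 fold change of -0.17. LEP had the smallest p and was lower in every GOM library, at 52.1 to 143 TPM against 147 to 254 TPM (log2 fold change -1.36, SE 0.33, adjusted p = 0.053, edgeR). The part of cell composition in the member results was not tested.

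Of 66 other genes of the pathway, 62 were found by symbol and 60 were tested, and between the depots 4 were higher in the GOM and 1 was lower, where 2.28% and 1.22% of all genes were, with a median log2 fold change of 0.27 against 0.04 over all genes. PTK7, a WNT coreceptor, stood at 6.22 to 17.9 TPM in the GOM and 0.40 to 1.97 TPM in the ULB (log2 fold change 3.51, SE 0.43, adjusted p = 0.00185, edgeR). LRP4, a receptor that binds several WNT antagonists, stood at 4.13 to 13.0 and 0.49 to 2.53 TPM (log2 fold change 2.71, adjusted p = 0.0173, edgeR). CELSR1, a cadherin of planar cell polarity, stood at 1.96 to 5.62 and 0.41 to 0.89 TPM (log2 fold change 2.61, adjusted p = 0.00758, edgeR), and TLE1, a corepressor of TCF factors, at 16.5 to 40.9 and 4.73 to 14.1 TPM (log2 fold change 1.65, adjusted p = 0.0409, edgeR). CTHRC1, a secreted protein that binds WNT and FZD proteins, was lower in the GOM, at 1.85 to 11.4 against 29.7 to 76.0 TPM (log2 fold change -3.50, adjusted p = 0.00112, edgeR). In these 5 genes the depots did not overlap. None of 14 listed target genes of the beta-catenin branch was called by edgeR. At an unadjusted p below 0.05 stood 3 of them, AXIN2, TNFRSF19 and RNF43, where 18.9% of all genes did. AXIN2, the target used most widely as a readout, stood at 16.7, 4.49, 14.5 and 13.2 TPM in the GOM and 4.20, 1.17 and 2.12 TPM in the ULB, without overlap (log2 fold change 2.16, SE 0.52, adjusted p = 0.0505, edgeR). The 3 listed genes of WNT secretion and 14 cytoplasmic genes had no call, and WLS, which carries WNT proteins to the surface, stood at 26.4 to 46.4 TPM in the GOM and 17.0 to 28.0 TPM in the ULB.

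Between the breeds, with depot as a covariate, edgeR called 0 of the 41 tested members, where 0.446% of all genes were called, and 14 members had an unadjusted p below 0.05, where 20.7% of all genes did. DESeq2 called 6 (WNT2, WNT5B, WNT6, WNT9A, WNT10B and DKK3), but it called 1058 of all genes, where edgeR called 80. WNT6, a ligand of the beta-catenin branch, came closest. It stood at 1.75 and 3.77 TPM in the wild boar GOM, 0.96 and 3.6 TPM in wild boar ULB, 0.67 and 0.82 TPM in Bama pig GOM and 0.20 TPM in Bama pig ULB. Every wild boar library was above every Bama pig library (log2 fold change 2.74, wild boar over Bama pig, SE 0.65, adjusted p = 0.086, edgeR). WNT10B was the other member higher in every wild boar library, at 2.36 to 3.47 TPM against 0.70 to 2.15 TPM (log2 fold change 1.37, SE 0.41, adjusted p = 0.133, edgeR), where 1.08% of all genes tested were higher in every wild boar library. On the TPM scale RSPO3 was lower in every wild boar library, at 6.43 to 20.9 TPM against 22.6 to 48.9 TPM (log2 fold change -0.84, SE 0.38), where 11.7% of all genes were. In the fit of the GOM alone, on counts scaled between libraries, its log2 fold change was -0.23 (SE 0.44). The liver transcripts of the Bama pig libraries move with the same contrast, and edgeR called 3 of the 7 liver genes found, as lower in wild boar. Without Bama pig GOM replicate 2, the library with the most ALB, edgeR called 6 members (DKK3, FZD1, RSPO3, WNT5B, WNT6 and WNT9A), where 10.2% of all genes were called, and without wild boar GOM replicate 1 it called 1 (DKK2), where 0.965% were. Of the 60 other pathway genes edgeR called 1 between the breeds, CELSR2, a cadherin of planar cell polarity, at 2.36 to 3.88 TPM in the wild boar and 10.9 to 20.2 TPM in the Bama pig libraries (log2 fold change -1.83, SE 0.26, adjusted p = 0.0198, edgeR).

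In the GOM alone, with 2 libraries of each breed, edgeR called 0 of 39 tested members, where 0.0241% of all genes were called, 5 had an unadjusted p below 0.05, where 8.0% of all genes did, and DESeq2 called 0. WNT16 was higher in both wild boar libraries (log2 fold change 1.56, SE 0.40, adjusted p = 0.564, edgeR), and the log2 fold change of SFRP4 was 2.32 (SE 0.82, adjusted p = 0.609, edgeR), with wild boar GOM replicate 2 far above the other 3. SFRP4 was called without wild boar GOM replicate 1 and RSPO2 without wild boar GOM replicate 2. Each of these fits leaves wild boar with 1 library, so neither call is read as a result. Whether the depot difference depended on breed was tested with an interaction term. By edgeR 0 members and 0.0% of all genes were called, 4 members had an unadjusted p below 0.05, where 4.65% of all genes did, and DESeq2 called 0 members. These 4 were LGR5, WNT16, WNT2B and WNT5B, whose log2 fold change of depot in wild boar minus that in Bama pig was -4.0 (SE 1.33), 1.53 (SE 0.61), 3.02 (SE 0.90) and -3.03 (SE 1.11). All rest on 1 Bama pig ULB library.

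To place the members in the nucleus, PC1 of the Hi-C contact matrix was read in the 20-kb bin that holds each start site. PC1 is a score without a unit, positive in the open compartment A and negative in the closed compartment B, and the deposited scores carry no read depth. Of the 46 start sites 26 lay in a bin with a positive PC1 in all 7 libraries (56.5%, where 40.85% of all autosomal bins were), 8 in a bin that was negative in all, and 12 in a bin of mixed sign. The share over all bins includes bins without a gene, so it is not a like background for start sites. WNT1 and WNT10B share a bin. Between the depots limma, with breed as a covariate, called 3 members at an adjusted p below 0.05 over 113298 bins, where 2.3% of all bins were called. Of the 12228 tested genes with a position, 1.096% had a called start-site bin. At an unadjusted p below 0.05 stood 13 members, where 21.2% of all bins did. The called members were RSPO1, DKK3 and DKK2. RSPO1 had a PC1 of 42.9, 35.1, 33.3 and 40.4 in the GOM libraries and of 26.7, 23.6 and 18.1 in the ULB libraries, a difference of 15.8 (SE 3.17, adjusted p = 0.0433, limma). It was in compartment A in every library and higher in every GOM library. DKK3 had a PC1 of 35.3, 36.3, 31.4 and 39.8 in the GOM and 14.4, 19.4 and 11.96 in the ULB, a difference of 20.8 (SE 3.03, adjusted p = 0.0235, limma), also in compartment A throughout. DKK2 had a PC1 of -5.19, 1.26, -0.08 and -4.14 in the GOM and 20.1, 15.9 and 13.0 in the ULB, a difference of -17.99 (SE 2.92, adjusted p = 0.0267, limma). Its bin was in compartment A in all ULB libraries and near 0 in the GOM. The adjusted p of RSPO1 and DKK2 rose above the threshold when any of the 7 libraries was left out, to at most 0.232 and 0.122, and that of DKK3 did without wild boar GOM replicate 1 (0.0504), Bama pig GOM replicate 2 (0.0552), wild boar ULB replicate 1 (0.0976) or Bama pig ULB replicate 2 (0.135), all by limma.

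**Figure D4:**
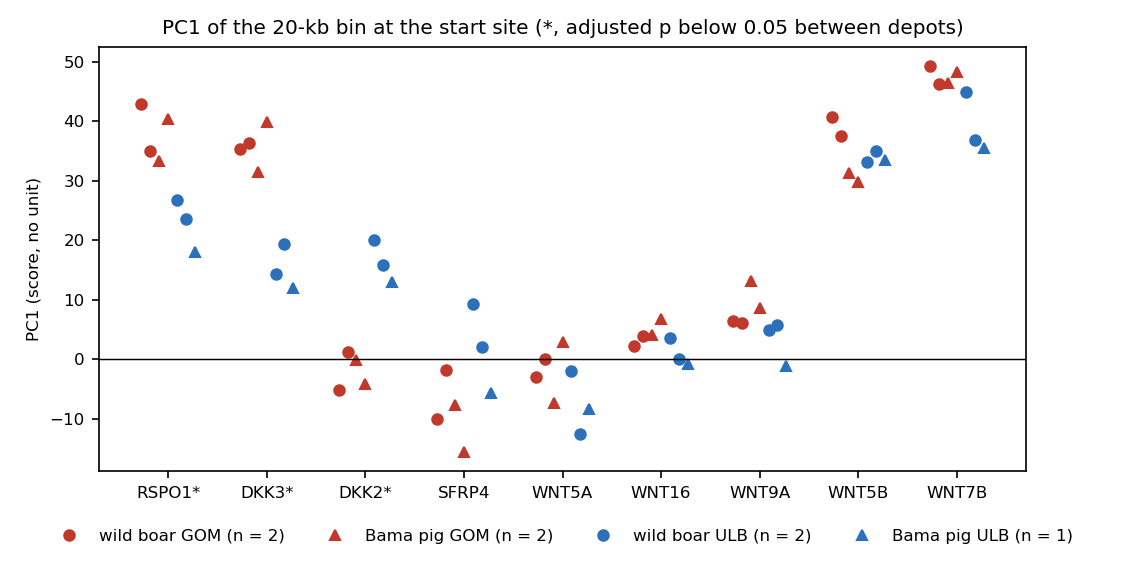
PC1 (score, no unit) of the 20-kb bin at the start site of the 8 members called in expression and of DKK2, with 1 point per library (red GOM, blue ULB, circles wild boar, triangles Bama pig) and a line at 0, the border of compartments A and B. The depots are apart for RSPO1, DKK3, DKK2, WNT7B and WNT9A and overlap for the other genes.

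At the loci of the other members called in expression, PC1 was not called. WNT7B lay deep in compartment A, at 46.2 to 49.2 in the GOM and 35.5 to 45.0 in the ULB (adjusted p = 0.14, limma). WNT5B was also in compartment A throughout, at 29.8 to 40.7 and 33.1 to 35.1. WNT16 and WNT9A lay near the border, at 2.17 to 6.82 and -0.76 to 3.57 for WNT16 and at 6.17 to 13.1 and -1.05 to 5.81 for WNT9A. WNT5A straddled 0 in the GOM, at -2.92, 0.06, -7.28 and 2.85, and was negative in the 3 ULB libraries, at -2.01, -12.5 and -8.29. SFRP4 was negative in all GOM libraries, at -1.76 to -15.6, and was 9.35, 2.01 and -5.68 in the ULB. All 8 members called in expression had a PC1 difference of the same sign as their fold change, where 76.12% of the 490 called genes with a position did and 55.66% of all 12228 tested genes with a position. The 8 include WNT7B, whose call is not read as a test. The PC1 difference was 1.81 (SE 2.76) for WNT5B and 3.19 (SE 2.61) for WNT16, so some of these signs rest on differences near or below their SE. The bin was called for 2 of the 8, where it was for 7.755% of the 490 genes. Across the 41 tested members the fold change and the PC1 difference had a Pearson's r of 0.42, against 0.2 over all 12228 genes, and genes that share a library or a bin are not independent. WNT7B entered this r at its fitted fold change. The 41 include WNT10A, RSPO2 and LGR6, which like WNT7B passed the filter through the libraries of a single depot. Between the breeds limma called 0 members in PC1, where 0.00971% of all bins were called, and 5 members had an unadjusted p below 0.05, where 12.1% of all bins did.

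**Figure D5:**
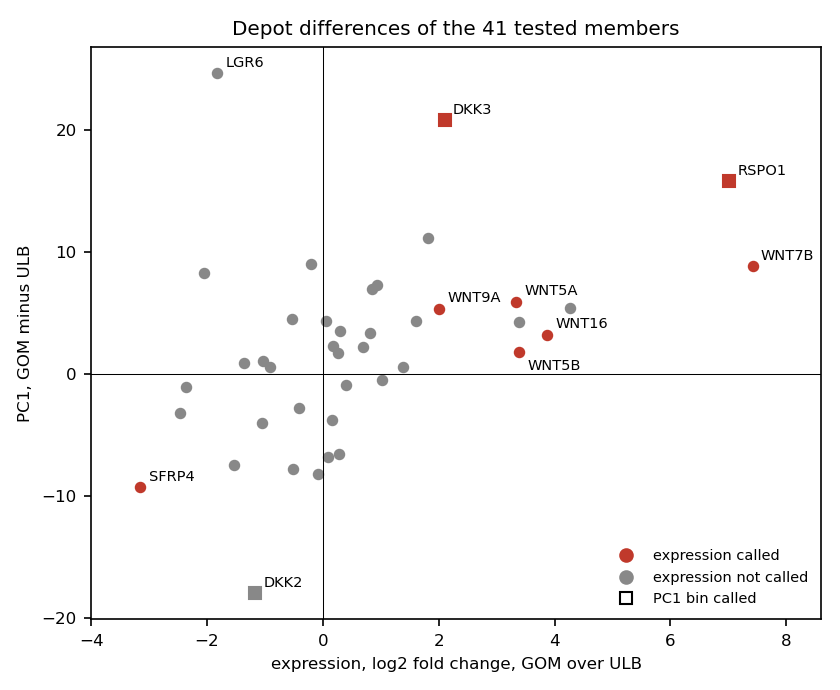
PC1 difference (GOM minus ULB, no unit) against the log2 fold change of expression (GOM over ULB) for the 41 tested members, red where expression was called and square where PC1 was called. The red points lie in the upper right or the lower left, and RSPO1 and DKK3 are the members called in both measures.

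The TADs, contact domains that the authors called on merged replicates, were read in 1 list per breed and depot, so they have no replicate check. Of the 46 start sites 31 lay in a TAD in all 4 lists, and for 15 (32.6%) both ends were the same in all 4 within 40 kb, where this held for 37.1% of 13052 genes. In wild boar 22 members had the same TAD in both depots and in Bama pig 22, where 54.5% and 51.4% of the genes did. WNT16 and WNT7B were the 2 called members with the same TAD in all 4 lists, of 360 to 400 kb and 340 to 360 kb. RSPO1 lay in a TAD of 460 kb in 3 lists and of 560 kb in Bama pig ULB. DKK3 lay in a TAD of 380 kb in both GOM lists and in none in both ULB lists. WNT5A lay in a TAD of 900 kb in both GOM lists, in none in wild boar ULB and in a TAD of 460 kb in Bama pig ULB. The largest difference in TAD size between the depots among the members was at WNT11, whose expression did not pass the test, with a TAD of 1260 and 1100 kb in the GOM lists and of 260 kb in both ULB lists.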

How the data were processed

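RNA-seq and Hi-C were analysed in 7 libraries each. Expression of protein-coding genes was estimated by the authors with Kallisto (version 0.43.0 per the labels) on Sscrofa11.1, who deposited an estimated count per gene without normalization between libraries, which was rounded here. The authors also deposited TPM, scaled within a library. For Hi-C, PC1 scores of 20-kb bins, oriented by gene density, were deposited by the authors from KR and quantile normalized matrices, along with TADs called on merged replicates, which for Bama pig ULB include a replicate not analysed here. Symbols were known for 14821 of 21280 genes (69.6%), and positions came from RefSeq.

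Counts were tested with edgeR 4.0.16 (quasi-likelihood F test, TMM, breed and depot as terms, two-sided), and PC1 with limma 3.58.1. DESeq2 1.42.0, other normalizations, filters and fits without each library were alternatives. The files hold PC1 where an A-B index was planned for, and the planned test was kept. The methods were tested on simulated data. The replicate number was not treated as a pairing, since no label ties it to a pig, although both depots came from the same pigs. Named members are those called, those with a mean TPM of at least 1 in a group and the leading member of each family. The other members were named to account for all of them. Other pathway genes are those called, beside AXIN2, TNFRSF19, RNF43 and WLS, which were chosen after their values were seen. The members and lists were chosen with earlier results of these data known. Libraries are taken as separate samples, and p-values measure the spread between them. The depth of 10833153 to 18627076 estimated counts per library limits members with few counts. R 4.3.3, Python 3.11.15, pandas 2.3.3 and matplotlib 3.10.9 were used.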

Additional observations from a re-analysis of the deposited data

How the results depend on the processing

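Of the 8 members called between the depots, RSPO1, WNT5A and WNT16 were called in each of the 7 fits without a library, with DESeq2, with limma on log2(TPM + 0.5), and in the wild boar libraries alone. A fit of the Bama pig libraries alone, added after the data were seen, also called them, but it has 1 ULB library, which is assumed to vary like the GOM pair that gives its spread. The fit without a library called 3 to 8 members, with 3 when Bama pig ULB replicate 2 was left out, and 261 to 706 genes. In wild boar libraries alone 5 members and 425 genes were called. For all genes DESeq2 called 1289 and the fit without a filter 999, against 628. Limma on log2(TPM + 0.5) did not call DKK3 (adjusted p = 0.0759) or WNT7B. Between the breeds DESeq2 called 6 members and 1058 genes, no filter 1 and 503, and a filter of TPM above 1 called 50 genes, against 80. Leaving out a library gave 0 to 6 members and 4 to 1820 genes. In the GOM, DESeq2 called 167 genes and no filter 26, against 4, and leaving out a library gave 0 to 1 members and 0 to 115 genes. For the interaction DESeq2 called 52 genes and no filter 7, against 0, and leaving out a library gave 0 to 2 genes. For PC1 between the depots, leaving out a library gave 0 to 1 members and 0 to 700 bins, against 3 and 2609. A rule on the sign of PC1 alone gave 0 members and 997 bins, and the mean over the gene body gave 4 members. Between the breeds the sign rule gave 173 bins, centring on the chromosome median 22, and leaving out a library 6 to 1523 bins, against 11.

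With the replicate number as a block, 10 members (WNT2B and DKK2 added) and 881 genes were called between the depots, against 8 and 628. The block called 15 genes between the breeds in the GOM, 6 members and 674 genes for the interaction (DKK3, LGR5, LRP5, RSPO3, SFRP2 and WNT5B), and 0 members and 0 bins for PC1 between the depots. The depots share pigs, but no label ties a number to a pig, and deviations of samples with the same number correlated at 0.154 (wild boar, between depots) and 0.144 (GOM, between breeds). No called value changed sign under any alternative that was run. Rare members such as WNT7B and WNT10A are limited by depth, and the cause of the other differences was not tested.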
